A study of Homo sapiens with 18 samples.

Results

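The effect of CsA on a cultured human kidney cell line was compared between 24 h and 48 h of exposure, gene by gene, to see which effects were larger at the later time, which were smaller and which had turned their sign. The CsA effect at one time is the log2 level in the CsA array minus the log2 level in the control array with the same replicate number. The change of the effect is the effect at 48 h minus the effect at 24 h, taken within each replicate number. It used 12 of the 18 arrays of the series, 3 in each of 4 groups: CsA at 24 h, control at 24 h, CsA at 48 h and control at 48 h. The remaining 6 arrays, of 12 h, entered alternative fits and the filter on low levels, which kept genes with a mean of at least 4 in any of the 6 groups of the series. Of the 10717 genes tested, 51 passed it only through a group of 12 h. With the filter on the 4 groups of 24 and 48 h, an alternative chosen after seeing the data, 10668 genes were tested.

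Every array came from HK-2 cells, immortalized epithelial cells of the human proximal tubule, so all groups share 1 cell line and 1 laboratory. CsA is the usual abbreviation of cyclosporin A, although the labels do not write the name out and give no dose. Control wells received the vehicle. Cells had been plated a day before exposure and were close to confluent when treated. Their medium held epidermal growth factor, insulin and hydrocortisone, and the labels do not say that it was renewed. The labels call the 3 arrays of a group biological replicates and do not say what a replicate shared with the others, so the p-values measure the spread between these samples. Microarray levels are given on a log2 scale, on which a difference of 1 is a doubling of signal.

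Cyclosporin A binds cyclophilins, and the complex with cyclophilin A inhibits the phosphatase calcineurin. In the kidney it is known for tubular and vascular toxicity. Cyclophilin B, encoded by PPIB, lies in the endoplasmic reticulum (ER) and helps secreted proteins to fold. Cells that accumulate unfolded protein in the ER answer with the unfolded protein response. One branch acts through the kinase PERK and the transcription factors ATF4 and CHOP, which also answer to a lack of amino acids. The other branches act through ATF6 and through IRE1, which activates XBP1, and they raise chaperones, protein import, glycosylation and transport machinery. Cell division depends on E2F transcription factors, which drive the genes of DNA replication.

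The arrays of one replicate number resembled each other: by deviations from the group means, each of the 12 arrays was most like an array with its own number. Between the times, control arrays of replicates 1 and 2 did not pair clearly by number. Of 20 proximal tubule markers on the array, 7 reached a level of 4, among them SLC3A1, PDZK1, PAX8, CDH2, CDH6 and KRT18. The endocytic receptors LRP2 and CUBN, the water channel AQP1, the aminopeptidase ANPEP and the phosphate carrier SLC34A1 did not. Of the endothelial markers, 0 of 8 reached that level, and of the leukocyte markers 1 of 6, LCP1. Distal nephron markers reached it in 3 of 11 (AQP3, SCNN1A and CDH16), podocyte markers in 2 of 5 (PODXL and SYNPO) and fibroblast markers in 4 of 9. The distance between 3-prime and 5-prime control probe sets, a sign of RNA integrity, had changes of the CsA effect between -0.33 and 0.44 for ACTB and between -0.19 and 0.09 for GAPDH over the 3 replicate numbers.

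CsA effects were larger at 48 h than at 24 h across the measured genes. The SD of the effect over 10717 genes was 0.264, 0.364 and 0.299 in replicates 1, 2 and 3 at 24 h and 0.437, 0.508 and 0.505 at 48 h. The mean effect lay above 1 for 26 genes and below -1 for 5 genes at 24 h, against 93 and 280 genes at 48 h. In limma, with the replicate number as a block and Benjamini-Hochberg adjustment over all genes, CsA against control gave 0 genes at an adjusted p under 0.05 at 24 h (777 at an unadjusted p under 0.05, 7.25%). At 48 h it gave 103 higher and 189 lower genes, 0.961% and 1.76% of those tested, together 2.72% (24.3% at an unadjusted p under 0.05). Levels moved more between the times than between treatments: from 24 to 48 h, 25.9% of genes passed in control arrays (13.4% up, 12.5% down) and 36.4% in CsA arrays (18.8% up, 17.6% down).

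The change of the effect itself passed the adjusted threshold for 0 of 10717 genes in either direction (0%), with a smallest adjusted p of 0.189 in limma. At an unadjusted p under 0.05 there were 543 positive changes (5.07%) and 589 negative ones (5.5%). Together that was 1132 genes, or 10.6%. Without the replicate block the same 12 arrays gave 0 adjusted calls and 393 unadjusted ones (3.67%), and the 3 double differences alone gave 0 and 2201 (20.5%). When all 18 arrays shared the estimate of the spread, limma with the block called 4 positive changes (0.0373%; IL20RB, A1BG, EML2-AS1 and ALG14) and 1 negative change (0.00933%; NETO1), with 13.4% at an unadjusted p under 0.05. Without the block the 18 arrays gave 4 positive calls (0.0373%), FBXO16 in place of ALG14, 0 negative ones and 5.68% unadjusted. No change of effect described here passed in the 12 arrays, and each is given as a measured difference with its error. An effect is said to turn where its measured sign differed between the times. An effect that passes at 48 h and not at 24 h is not thereby shown to differ between the times.

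**Figure D1:**
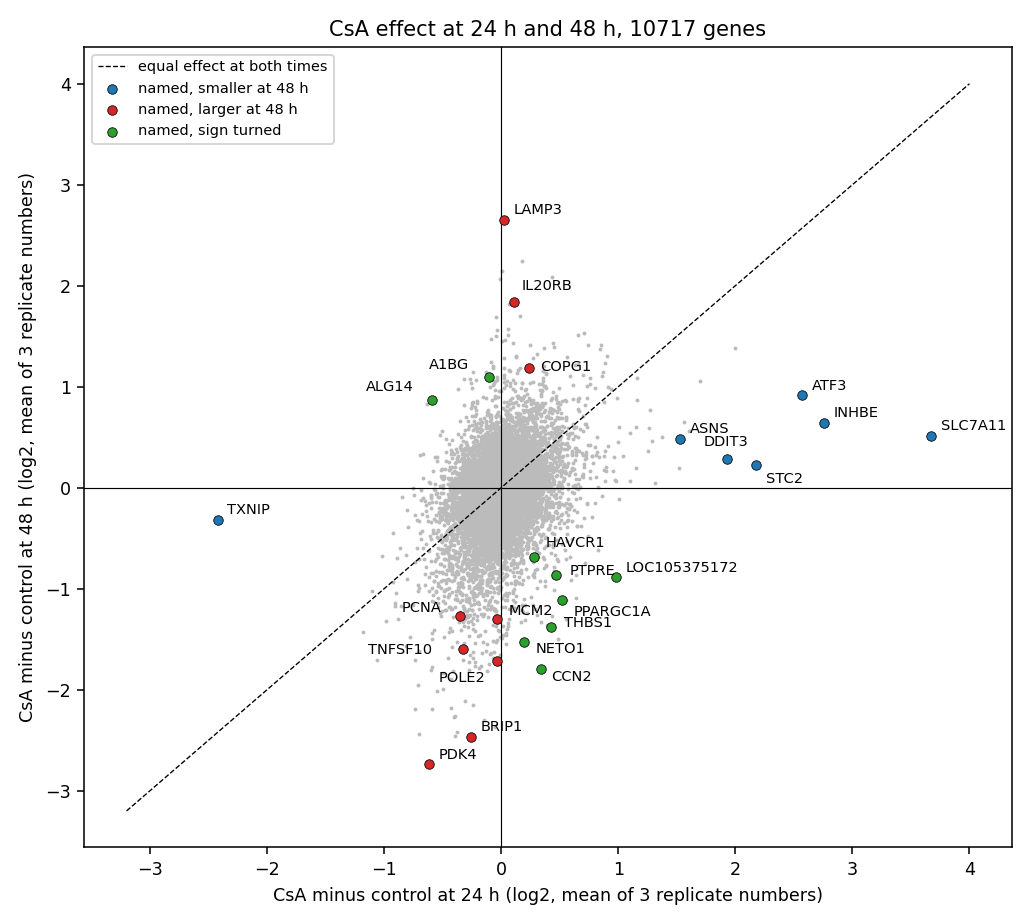
CsA effect at 24 h (horizontal axis, log2) against the effect at 48 h (vertical axis, log2) for 10717 genes, each a mean over 3 replicate numbers. Grey points spread further along the vertical axis. SLC7A11, INHBE and STC2 lie far right near the horizontal axis, LAMP3 and IL20RB lie high near the vertical one, and green points such as PPARGC1A and ALG14 lie in the quadrants of opposite signs.

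In 4762 genes (44.4%) the 3 replicate numbers had a change of one sign. Among the 2385 genes with 3 positive changes (22.3%), the mean effect had one sign and was larger at 48 h in 728, had one sign and was smaller in 227, and had opposite signs at the 2 times in 1430. Among the 2377 genes with 3 negative changes (22.2%) the counts were 931, 226 and 1220. Most sign turns were small at the start: 1287 of the 1430 and 1010 of the 1220 had a mean effect under 0.3 in size at 24 h. Full reversals, with all 3 replicate numbers on one side of 0 at 24 h and all 3 on the other side at 48 h, numbered 340 from higher to lower (3.17%) and 406 from lower to higher (3.79%).

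Gene lists for the pathways that CsA, the ER and the tubule bring into view are set side by side in the plot of list medians. Over all genes tested the median change was 0.00 after rounding, with 49.5% of changes positive. The lists of DNA replication, repair of replication forks, mitosis, and ATF4 and CHOP targets had the lowest medians. The lists of ER-associated degradation, the translocon with the oligosaccharyltransferase, p53 targets and the ER to Golgi coats had the highest.

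**Figure D2:**
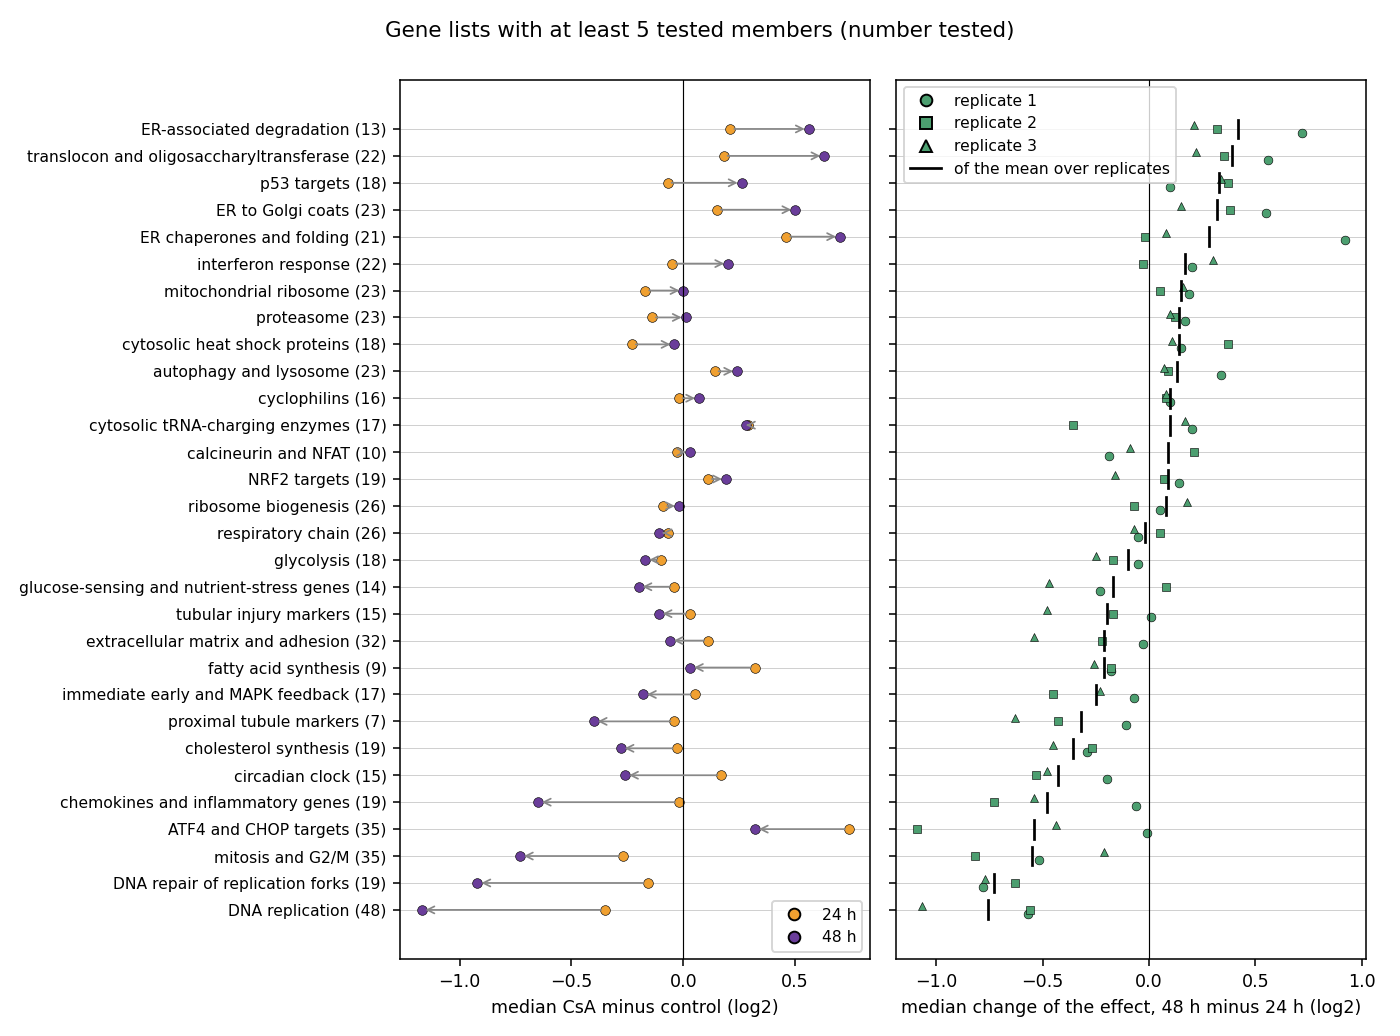
Medians over the tested members of each gene list (log2). Left panel: median CsA effect at 24 h (orange) and at 48 h (purple). Right panel: median change of the effect in each replicate number (symbols) and of the mean over them (bars). ATF4 and CHOP targets go from 0.74 to 0.32 on the left, while DNA replication goes from -0.35 to -1.17.

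Targets of ATF4 and CHOP, genes of amino acid supply and of the stress response, had smaller CsA effects at 48 h than at 24 h. Of 35 tested members, 35 had a positive mean effect at 24 h, and 32 had a negative change against 50.5% of all genes. In 29 members the effect kept its sign and was smaller at 48 h. Their median effect was 0.74 at 24 h and 0.32 at 48 h, and the median change was -0.54. At an unadjusted p under 0.05 the change was negative in 6 members (17.1%, against 5.5% of all genes) and positive in 0, and none passed after adjustment. Replicate numbers differed: the list's median change was -0.01 in replicate 1, -1.09 in replicate 2 and -0.44 in replicate 3, and without replicate 2 it was -0.15.

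SLC7A11, the cystine importer that feeds glutathione synthesis, had the most negative change of all genes. Its control level was 4.34, 5.45 and 4.05 in replicates 1, 2 and 3 at 24 h and 9.89, 10.22 and 9.99 at 48 h. Its CsA level was 7.64, 10.08 and 7.13 at 24 h and 10.55, 10.75 and 10.32 at 48 h. The 3 CsA arrays stood above the 3 control arrays at both times, far above at 24 h and barely at 48 h. The effect was 3.67 at 24 h, a 12.8-fold higher signal, and 0.51 at 48 h, a 1.42-fold one. The change was -3.16 ± 0.65 (SE; adjusted p = 0.46 in limma), with -2.64, -4.10 and -2.75 in the 3 replicate numbers. From 24 to 48 h the control level rose by 5.42 (adjusted p = 0.000626) and the CsA level rose by 2.26 (adjusted p = 0.00564). Of its other probe sets, one had a change of -2.46 and one of 0.48.

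STC2 and INHBE, both members of the list, had the same shape, a large effect at 24 h and control arrays that rose to meet the CsA arrays by 48 h. INHBE, an inhibin beta subunit of hepatic and stress expression picked here after its values were seen, went from group means of 6.32 in control and 9.08 with CsA at 24 h to 11.48 and 12.12 at 48 h. Its change was -2.11 ± 0.69 (adjusted p = 0.46). STC2, a secreted stanniocalcin of the stress response, had control levels of 3.13, 4.47 and 5.46 and CsA levels of 5.76, 7.21 and 6.63 at 24 h. At 48 h the control levels were 6.79, 7.04 and 8.05 and the CsA levels 7.27, 7.46 and 7.81. The groups were separate at 24 h and overlapped at 48 h. The change of STC2 was -1.95 ± 0.51 (adjusted p = 0.46), and its level rose by 2.94 in control arrays (adjusted p = 0.0016), against 0.98 in CsA arrays (adjusted p = 0.0616).

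DDIT3, which encodes CHOP, depended on replicate 2. Its effects at 24 h were 1.14, 3.05 and 1.60, and at 48 h 0.88, 0.08 and -0.11. Its change was -1.65 ± 0.77 (adjusted p = 0.487), and -0.95 without the CsA array of replicate 2 at 24 h, where its level was 11.48 beside 9.03 and 8.78 in the others. In control arrays DDIT3 rose from a mean of 7.84 to 13.01 (adjusted p = 0.00102), and the 48 h groups overlapped. ATF4, the factor itself, had effects of 0.82 and 0.35 and a change of -0.47 ± 0.21 (adjusted p = 0.482). ATF3, a stress factor downstream of ATF4, had a change of -1.65 ± 0.87 that was -0.57 without replicate 2. Another probe set of ATF3 had -0.13, and the mean of both had -0.89. ASNS, asparagine synthetase, had -1.05 ± 0.65, and -0.50 without replicate 2. Both were chosen after their values were seen.

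GDF15, a stress hormone, had a positive change in replicate 1 (0.44) and negative ones in replicates 2 and 3 (-1.08 and -1.04). The effect turned in 3 members: the serine synthesis enzymes PSAT1 (0.21 to -0.39) and PSPH (0.42 to -0.14), named after their values were seen, and VLDLR. The effects of VLDLR, a lipoprotein receptor, were 0.30, 0.24 and 0.54 at 24 h and -0.60, -0.56 and -0.23 at 48 h. Its change was -0.82 ± 0.26 (adjusted p = 0.46). The 3 members with a positive change, chosen after their values were seen, were the glycine carrier SLC6A9 (1.03 ± 0.60), NUPR1 (0.23 ± 0.69), a stress-induced chromatin protein, and the serine hydroxymethyltransferase SHMT2 (0.08 ± 0.28). Of the cytosolic tRNA-charging enzymes that ATF4 also raises, CARS1 had a change of -0.46 ± 0.26 and YARS1 one of -0.43 ± 0.26, both carried by replicate 2 (-1.17 and -1.14). RARS1 had 0.15 ± 0.12. Of 17 tested tRNA-charging enzymes, 10 had a positive change, and the median change of the list was 0.10. None had one at an unadjusted p under 0.05, against 10.6% of all genes. NUPR1 had no settled direction, with changes of 0.36, -1.51 and 1.83 in the 3 replicate numbers.

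TXNIP, the thioredoxin-binding protein that glucose induces, had that shape in the other direction. Its control level was 9.58, 8.14 and 7.88 at 24 h and 5.41, 4.72 and 5.89 at 48 h. Its CsA level was 7.37, 5.42 and 5.55 at 24 h and 5.01, 4.41 and 5.64 at 48 h. All CsA arrays lay below all control arrays at 24 h, and the groups overlapped at 48 h. The effect was -2.42 at 24 h, a 5.35-fold lower signal, and -0.32 at 48 h, with a change of 2.10 ± 0.66 (adjusted p = 0.46). The level fell by 3.20 in control arrays between the times (adjusted p = 0.00276), and by 1.09 with CsA, which did not pass (adjusted p = 0.0978). Its other 2 probe sets had changes of 2.25 and 2.66.

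**Figure D3:**
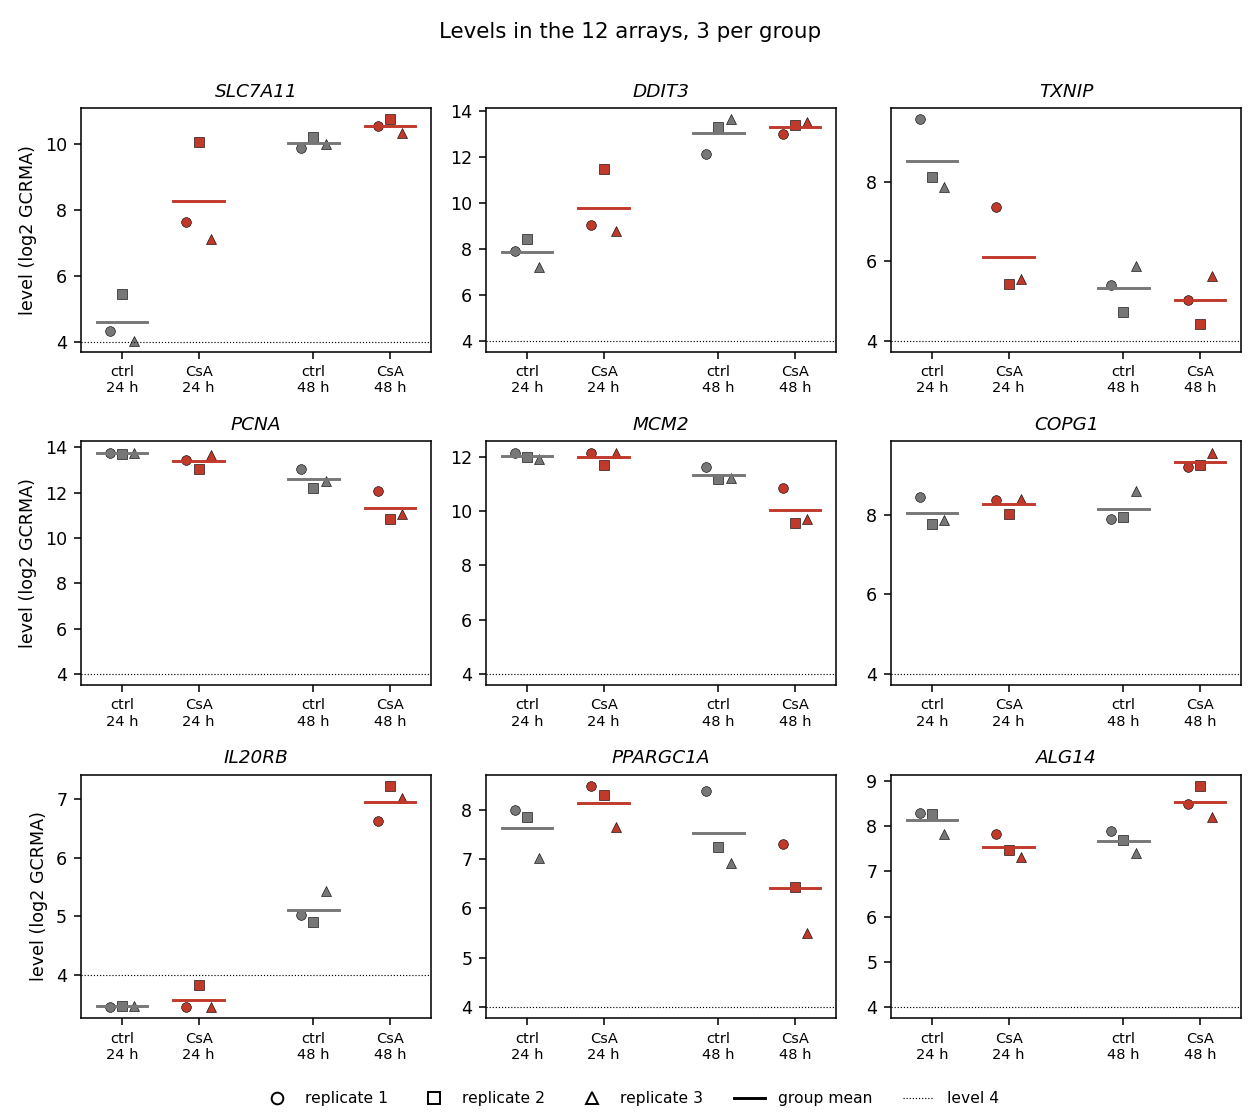
Level (log2 GCRMA) of 9 genes in the 12 arrays, by group (grey control, red CsA; symbols are replicate numbers, bars group means). Control arrays of SLC7A11 and DDIT3 climb to the CsA level by 48 h and those of TXNIP fall to it, PCNA and MCM2 separate at 48 h, and PPARGC1A and ALG14 exchange the order of their groups.

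The amino acid response element, TGATGNAA on either strand (N is any base), is the kind of site that ATF4 and its partners bind. It was looked for in the RefSeq promoter table of the GRCh38.p14 build, 250 bases before to 50 after each gene's start. It was present in 5 of the 28 ATF4 and CHOP targets in that table (17.9%) and in 1.67% of the 8884 tested genes found there. A match describes the letters in this window and no more. The stretches with a match in ASNS (chr7:97872449-97872496, minus strand), in ATF3 (chr1:212565196-212565243, plus strand) and in HERPUD1 (chr16:56931946-56931993, plus strand), an ER-associated degradation gene with the same shape of change, are printed because these 3 genes share large effects at 24 h. They lie upstream of the start, and capitals mark the match.
ASNS: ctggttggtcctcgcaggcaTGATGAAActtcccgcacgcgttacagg
ATF3: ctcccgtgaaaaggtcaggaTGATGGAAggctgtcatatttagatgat
HERPUD1: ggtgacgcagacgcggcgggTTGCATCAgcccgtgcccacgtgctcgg

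Genes of DNA replication had a negative mean CsA effect in 47 of 48 tested members at 24 h and again in 47 at 48 h. In 44 members the change was negative, and 26 had one at an unadjusted p under 0.05 against 5.5% of all genes, with 2 positive. None passed after adjustment. The median effect was -0.35 at 24 h and -1.17 at 48 h, and the median change was -0.76, with -0.57, -0.56 and -1.07 in replicates 1, 2 and 3. At 48 h, 27 members were lower with CsA at an adjusted p under 0.05 in limma, against 1.76% of all genes lower at that time. Control arrays moved the same way. At an adjusted p under 0.05 in limma, 41 members fell from 24 to 48 h in control arrays, against 12.5% of all genes. In CsA arrays 46 did so, against 17.6%. The median moves of the list were -1.13 in control and -1.90 in CsA arrays. In RNA from whole cultures, fewer dividing cells and less RNA of these genes per cell cannot be told apart.

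MCM2, a subunit of the helicase that opens the DNA, had the smallest p of the list. Its control level was 12.16, 12.01 and 11.92 at 24 h and 11.64, 11.18 and 11.24 at 48 h. Its CsA level was 12.17, 11.69 and 12.13 at 24 h and 10.86, 9.57 and 9.72 at 48 h. The groups overlapped at 24 h, and every CsA array was below every control array at 48 h. The effect was -0.04 at 24 h and -1.30 at 48 h (adjusted p = 0.0402), a 2.46-fold lower signal. The change was -1.27 ± 0.30 (adjusted p = 0.46), and it passed without the CsA array of replicate 1 at 48 h (adjusted p = 0.0491, over alternatives 0.0491 to 0.999).

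Further members act at each step of copying DNA. MCM6, another helicase subunit, had a change of -1.27 ± 0.40, and POLA1, the catalytic subunit of the polymerase that primes synthesis, one of -0.77 ± 0.24. Both were chosen for their promoters after their values were seen. RFC4, part of the clamp loader, had effects of -0.10, -0.22 and 0.06 at 24 h and of -0.62, -0.94 and -0.78 at 48 h. PCNA, the sliding clamp, had effects of -0.29, -0.66 and -0.11 at 24 h and of -0.98, -1.36 and -1.45 at 48 h, and its groups did not overlap at either time. Its change was -0.92 ± 0.33 (adjusted p = 0.46). POLE2, a subunit of the leading-strand polymerase, had effects of 0.07, -0.40 and 0.22 at 24 h and of -1.05, -1.92 and -2.17 at 48 h, a change of -1.68 ± 0.45 (adjusted p = 0.46).

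The 4 members with a positive change were CDC6, E2F2, FEN1 and GINS4, named after their values were seen. CDC6, which loads the helicase onto origins, had effects of -0.46, -0.45 and -0.16 at 24 h and of 0.71, 0.54 and -0.06 at 48 h. Its change was 0.75 ± 0.30 (adjusted p = 0.46), and its level rose by 0.97 in CsA arrays (adjusted p = 0.0078). E2F2, an activating E2F factor, had effects of -0.73, -0.75 and -0.95 at 24 h, where its groups were separate, and of -0.40, -0.44 and 0.16 at 48 h. Its change was 0.58 ± 0.20 (adjusted p = 0.46). The flap nuclease FEN1 had a change of 0.25 ± 0.31 and the helicase cofactor GINS4 one of 0.04 ± 0.22, both of which turned sign when single arrays were left out.

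E2F sites were searched as TTTCGCGC, TTTGGCGC, TTTCCCGC or TTTGCCGC on either strand in the same promoter table. They were present in 21 of the 39 replication genes found there (53.8%), against 5.63% of the 8884 tested genes and 3.33% of all 27305 promoters of that length. The change had a median of -0.92 in the 21 genes with a match, from -1.87 to 0.75, and was negative in 19 of them. In the 18 without one the median was -0.66, from -1.73 to 0.25, and 17 were negative. For 9 genes that are not in the table the median was -0.75. CDC6 and E2F2, with positive changes of 0.75 and 0.58, also had a match. The stretches of MCM6 (chr2:135876502-135876615, minus strand), of POLA1 (chrX:24693761-24693808, plus strand) and of PCNA (chr20:5126654-5126701, minus strand) are printed as examples of genes with a negative change and a match. They lie upstream of the start, and capitals mark the matches, which in MCM6 overlap on the 2 strands.
MCM6: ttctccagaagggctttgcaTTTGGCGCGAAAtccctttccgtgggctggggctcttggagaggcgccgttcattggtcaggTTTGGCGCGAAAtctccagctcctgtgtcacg
POLA1: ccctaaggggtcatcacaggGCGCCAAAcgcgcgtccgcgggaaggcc
PCNA: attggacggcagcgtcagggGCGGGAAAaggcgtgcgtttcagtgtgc

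Genes that repair stalled or broken replication forks had the same direction. Of 19 tested members, 18 had a negative change, 11 of them at an unadjusted p under 0.05 (57.9%, against 5.5% of all genes), with a median of -0.73 and medians of -0.78, -0.63 and -0.77 in the 3 replicate numbers. BRIP1, a helicase that works with BRCA1, had control levels of 8.48, 8.44 and 8.73 and CsA levels of 8.32, 7.64 and 8.91 at 24 h. At 48 h the control levels were 7.59, 5.75 and 7.24 and the CsA levels 5.58, 2.72 and 4.89. The CsA arrays lay below all control arrays at 48 h, and replicate 2 was the lowest in both groups. Its change was -2.20 ± 0.63 (adjusted p = 0.46), and its level fell by 3.89 in CsA arrays (adjusted p = 0.00055) and by 1.69 in control arrays (adjusted p = 0.0246). BLM, the Bloom syndrome helicase, had a change of -1.24 ± 0.36, or -0.60 with values below 4 raised to 4, and RMI2, its partner, one of -1.49 ± 0.46. The exception, RAD54B, a recombination helicase noticed after the values were seen, had 0.41 ± 0.22.

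Mitosis genes had smaller changes. All 35 tested members had a negative mean effect at both times, with medians of -0.27 and -0.73, and 34 had a negative change. The change reached an unadjusted p under 0.05 in 2, or 5.7%, near the 5.5% of all genes. The list's median change was -0.55, with -0.52, -0.82 and -0.21 in replicates 1, 2 and 3, and it was -0.19 without the CsA array of replicate 2 at 48 h. BUB1B, a checkpoint kinase, had effects of -0.13, -0.44 and -0.14 at 24 h and of -0.98, -1.26 and -0.73 at 48 h. CDC25B, a phosphatase that starts mitosis, had a change of -0.63 ± 0.23. TOP2A, the topoisomerase of dividing cells, had one of -0.62 ± 0.38 that was -0.23 without the CsA array of replicate 2 at 48 h. KIF4A, a motor that condenses and moves chromosomes, lay below control in every CsA array at both times and had a change of -0.55 ± 0.25. PLK1, a mitotic kinase named after its value was seen, was the member with a positive change (0.21 ± 0.48). Another motif, TTTGAA of the cell cycle homology region (either strand), was in 19 of the 29 promoters found for this list (65.5%) and in 9.44% of those of all tested genes.

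Targets of p53 had a median change of 0.33 over 18 tested members, 12 of them positive. The median was 0.10, 0.37 and 0.34 in replicates 1, 2 and 3. Among the 6 negative changes were those of FAS (-0.78 ± 0.31) and GADD45A (-0.56 ± 0.31), named after their values were seen. CDKN1A, the p21 inhibitor of cyclin-dependent kinases, had effects of 0.07, 0.44 and 0.59 at 24 h and of 1.11, 1.04 and 0.88 at 48 h. It was higher with CsA at 48 h (1.01, adjusted p = 0.0404), where its groups were separate, and its change was 0.64 ± 0.27 (adjusted p = 0.468). TIGAR, a phosphatase of sugar metabolism, turned from -0.21, -0.15 and -0.29 to 0.31, 0.55 and 0.27. The repair factor XPC turned from -0.27, -0.24 and -0.20 to 0.08, 0.55 and 0.38. SESN1, a sestrin, had a change of 0.90 ± 0.35, but -0.32 in replicate 1 against 1.83 and 1.19 in the others.

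**Figure D4:**
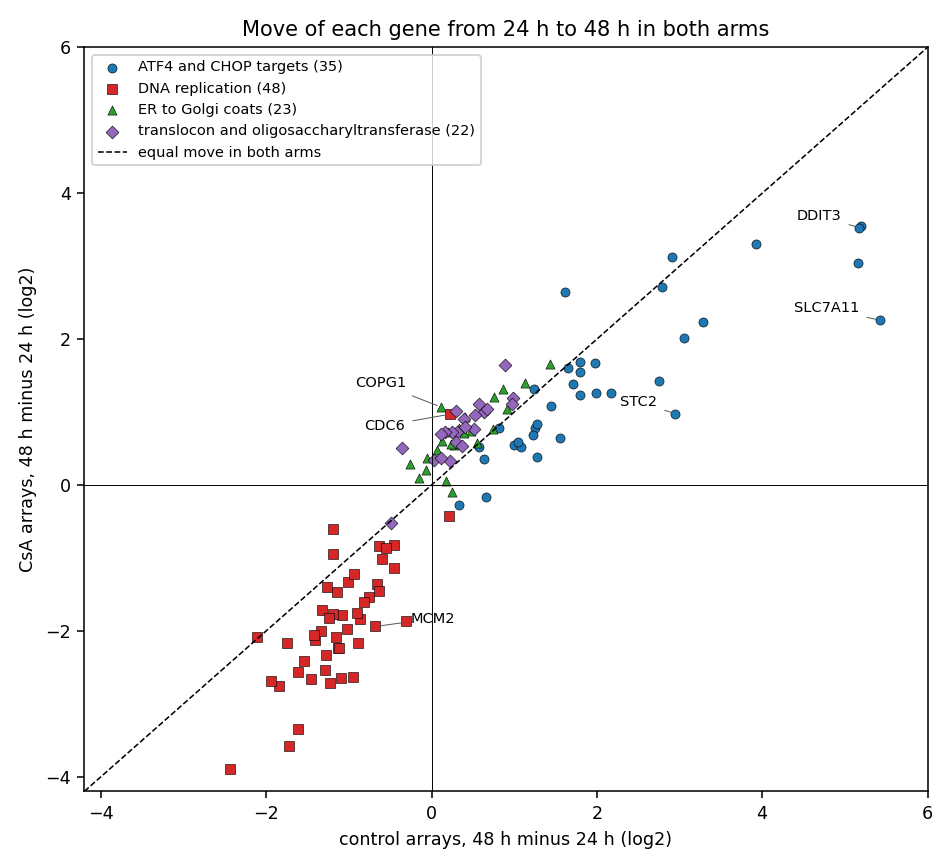
Difference between 48 h and 24 h in control arrays (horizontal axis, log2) and in CsA arrays (vertical axis, log2) for the members of 4 gene lists, each a mean over 3 replicate numbers, with the line of equal moves. ATF4 and CHOP targets lie to the right and mostly below the line, DNA replication genes lie to the left and mostly below it, and coat and translocon genes lie mostly above it near the centre.

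The machinery that carries proteins into the ER and onward had small positive effects at 24 h and larger ones at 48 h. Of 22 tested members of the translocon and the oligosaccharyltransferase, which import new proteins and attach sugar chains to them, 21 had a positive change, 5 of them at an unadjusted p under 0.05 against 5.07% of all genes. The median effect was 0.18 at 24 h and 0.63 at 48 h, and 5 members were higher with CsA at 48 h after adjustment, against 0.961% of all genes. The median change was 0.39, with 0.56, 0.35 and 0.22 in replicates 1, 2 and 3. Over leave-one-out fits it ran from 0.25 to 0.49. The exception, the signal peptidase subunit SPCS3, was named after its value was seen and had -0.04 ± 0.21.

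DAD1, a subunit of the oligosaccharyltransferase, had control levels of 11.62, 11.36 and 11.85 and CsA levels of 11.63, 11.01 and 11.84 at 24 h. At 48 h it had control levels of 11.01, 11.30 and 11.45 and CsA levels of 11.81, 12.09 and 12.12. The groups overlapped at 24 h, and all CsA arrays stood above all control arrays at 48 h. Its change was 0.87 ± 0.25 (adjusted p = 0.46). SRPRA, the receptor that docks ribosomes at the ER, turned from -0.19, -0.10 and -0.09 to 0.71, 0.37 and 0.74. SRP54, the signal-sequence binding part of the signal recognition particle, had a change of 0.56 ± 0.20.

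The coats that form vesicles between ER and Golgi had a median effect of 0.15 at 24 h and 0.50 at 48 h. Of 23 tested members, 21 had a positive change, 4 at an unadjusted p under 0.05 (17.4%, against 5.07% of all genes), with a median change of 0.32 that ran from 0.18 to 0.48 over leave-one-out fits. COPG1, a subunit of the COPI coat, had levels of 8.46, 7.78 and 7.87 in control and 8.38, 8.03 and 8.40 with CsA at 24 h. At 48 h the control levels were 7.89, 7.95 and 8.60 and the CsA levels 9.21, 9.24 and 9.56. The groups overlapped at 24 h and were separate at 48 h, when the effect was 1.19 (adjusted p = 0.0404), a 2.28-fold higher signal. Its change was 0.95 ± 0.29 (adjusted p = 0.46). COPZ1, another subunit of that coat, had effects of 0.04, -0.03 and 0.10 at 24 h and of 0.58, 0.61 and 0.56 at 48 h. SAR1B, the GTPase that starts the COPII coat, had a change of 0.45 ± 0.18, and its other 4 probe sets had 0.70 to 1.33. SEC24B and SEC23A of the COPII coat, named after their values were seen, had -0.34 ± 0.19 and -0.11 ± 0.21.

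Genes of ER-associated degradation, which returns misfolded proteins to the cytosol, had a median change of 0.42 over 13 tested members, 11 positive. It was 0.16 without the control array of replicate 1 at 48 h. SELENOS, a selenoprotein of that machinery, had effects of 0.18, 0.28 and 0.17 at 24 h and of 1.13, 0.87 and 0.93 at 48 h, when it was higher with CsA (0.98, adjusted p = 0.0388). Its change was 0.76 ± 0.21 (adjusted p = 0.46). OS9, a lectin that selects misfolded glycoproteins, had a change of 0.57 ± 0.21. The members with a negative change were HERPUD1 (-0.73 ± 0.32), a membrane protein of the degradation complex chosen after its values were seen, and XBP1 (-0.82 ± 0.26), the transcription factor of the IRE1 branch. XBP1 had effects of 0.59, 1.30 and 0.78 at 24 h, with separate groups, and of 0.21, -0.08 and 0.08 at 48 h, with overlapping ones. Another probe set of XBP1 had a change of 0.10, as had one of HERPUD1.

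ER chaperones had effects of 0.46 at 24 h and 0.70 at 48 h in the median over 21 tested members, 18 of them with a positive change. The median change of 0.28 rested on replicate 1: it was 0.92, -0.02 and 0.08 in the 3 replicate numbers, and -0.04 without the control array of replicate 1 at 48 h. HSPA5, the chaperone BiP, had control levels of 12.40, 12.38 and 12.37 and CsA levels of 12.96, 13.73 and 13.19 at 24 h. At 48 h it had control levels of 14.69, 15.12 and 15.26 and CsA levels of 15.29, 15.59 and 15.44. CsA arrays stood above control arrays at both times, and both groups rose between the times, by 2.64 in control (adjusted p = 0.000419) and by 2.15 with CsA (adjusted p = 0.000184). Its change was -0.50 ± 0.23 (adjusted p = 0.485).

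Other chaperones divided. SIL1, the exchange factor of BiP, had effects of 0.11, 0.11 and 0.01 at 24 h and of 1.25, 0.97 and 0.90 at 48 h, a change of 0.96 ± 0.34. SDF2L1, a cochaperone, had effects near 0 at 24 h (0.01, 0.00 and -0.14) and of 1.32, 0.55 and 0.23 at 48 h. The cochaperone DNAJB9 and the oxidase ERO1A, named after their values were seen, had -0.50 ± 0.32 and -0.02 ± 0.17. PPIB, the cyclophilin of the ER, was higher in every CsA array than in every control array at both times, with effects of 0.62, 0.69 and 0.79 at 24 h and of 1.55, 0.94 and 0.86 at 48 h. Its change was 0.42 ± 0.40 (adjusted p = 0.716). PPIA, the cytosolic cyclophilin A, had effects of -0.08 and -0.18 and a change of -0.10 ± 0.13.

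The ER stress element, CCAAT and CCACG with any 9 bases between them on either strand, was in 6 of the 19 chaperone promoters in the RefSeq table (31.6%) and in 0.146% of those of tested genes. The stretches of HSPA5 (chr9:125241371-125241429, minus strand) and XBP1 (chr22:28800583-28800641, minus strand), both upstream of the start, are printed because both genes had a positive effect in 3 of 3 replicate numbers at 24 h and a negative change. The other chaperones with a match, CALR, CANX, CRELD2, ERO1B and HSP90B1, had positive changes (0.35, 0.13, 0.28, 0.28 and 0.12). Genes with a match thus went both ways, and the 3 changes of HSPA5 were of mixed sign. Capitals mark the match.
HSPA5: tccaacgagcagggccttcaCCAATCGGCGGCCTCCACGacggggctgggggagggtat
XBP1: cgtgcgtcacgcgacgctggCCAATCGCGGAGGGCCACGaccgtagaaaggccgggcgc

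Several genes had a mean CsA effect near 0 at 24 h and a large one at 48 h. IL20RB, a receptor chain for interleukins of the IL-10 family, had control levels of 3.46, 3.46 and 3.48 and CsA levels of 3.46, 3.82 and 3.45 at 24 h, all below 4. At 48 h it had control levels of 5.02, 4.90 and 5.43 and CsA levels of 6.62, 7.23 and 7.03, with separate groups. The effect at 48 h was 1.84 (adjusted p = 0.0147), a 3.59-fold higher signal, and the change was 1.73 ± 0.25 (adjusted p = 0.243). With all 18 arrays and the block the change passed (adjusted p = 0.00859, over alternatives 0.00859 to 0.849).

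A1BG, a plasma glycoprotein gene, stayed between 5.72 and 5.94 in the control arrays of both times and the CsA arrays of 24 h, and was at 6.91, 7.26 and 6.73 in the CsA arrays of 48 h. Its change was 1.21 ± 0.18 (adjusted p = 0.243, over alternatives 0.0086 to 0.849). The antisense RNA EML2-AS1 had the smallest p of all genes, with levels between 2.74 and 2.86 in 9 arrays and of 4.16, 3.84 and 4.04 in the CsA arrays of 48 h. It passed the level filter through that group alone, with a mean of 4.01, so a small p rests on 9 arrays near background. Its change was 1.16 ± 0.14 (adjusted p = 0.189, over alternatives 0.00197 to 0.854), but 0.06 with values below 4 raised to 4. Whether its probe set also reads the partner gene EML2 was not tested.

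LAMP3, a lysosome-associated membrane protein that ER stress can induce, had the most positive change, 2.63 ± 0.81 (adjusted p = 0.46), and was picked after its values were seen. Its 6 arrays of 24 h lay between 2.32 and 2.36. At 48 h its control levels were 3.00, 6.25 and 4.91 and its CsA levels 6.24, 7.76 and 8.13, so that the groups overlapped. FBXO16, an F-box protein, had effects of 1.60, 2.14 and 0.98 at 48 h after levels below 3 at 24 h, and a change of 1.52 ± 0.29 that passed in 18 arrays without the block (adjusted p = 0.0436, over alternatives 0.0436 to 0.849). The ciliary gene CFAP69 had a change of 1.56 ± 0.32 and the antisense RNA MATN1-AS1 one of 1.45 ± 0.26. DGKG, a diacylglycerol kinase, had 0.93 ± 0.17, but all 4 of its group means at 24 and 48 h lay below 4, so that it passed the filter only through a group of 12 h, and with values below 4 raised to 4 the change was -0.02. OR7E156P, an olfactory receptor pseudogene with near-identical copies, had 1.01 ± 0.20, and TMEM218, a small membrane protein, 0.83 ± 0.18.

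Late effects on the lower side included NETO1, a receptor-associated membrane protein, with control levels of 5.65, 6.24 and 6.94 and CsA levels of 6.15, 6.31 and 6.94 at 24 h. At 48 h its control levels were 5.19, 5.60 and 5.79 and its CsA levels 4.07, 3.59 and 4.36. The groups were separate at 48 h, and the change was -1.72 ± 0.29 (adjusted p = 0.46). It passed with 18 arrays and the block (adjusted p = 0.0352, over alternatives 0.0352 to 0.999). The other probe set of NETO1 had a change of -0.35, and the mean of both had -1.03. TNFSF10, the death ligand TRAIL, had effects of -0.37, -0.25 and -0.36 at 24 h and of -1.11, -1.88 and -1.78 at 48 h, when it was lower with CsA (-1.59, adjusted p = 0.0313). Its change was -1.26 ± 0.28 (adjusted p = 0.46). The lectin-like receptor KLRG2 had a change of -1.16 ± 0.25, and PHIP, a chromatin-binding protein, one of -0.72 ± 0.16. PDK4, a kinase that inhibits pyruvate dehydrogenase, went from -0.81, -1.21 and 0.18 to -2.44, -2.51 and -3.28, a 6.68-fold lower mean signal at 48 h (adjusted p = 0.0404). Its change was -2.13 ± 0.66, while one of its other probe sets had 1.10.

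**Figure D5:**
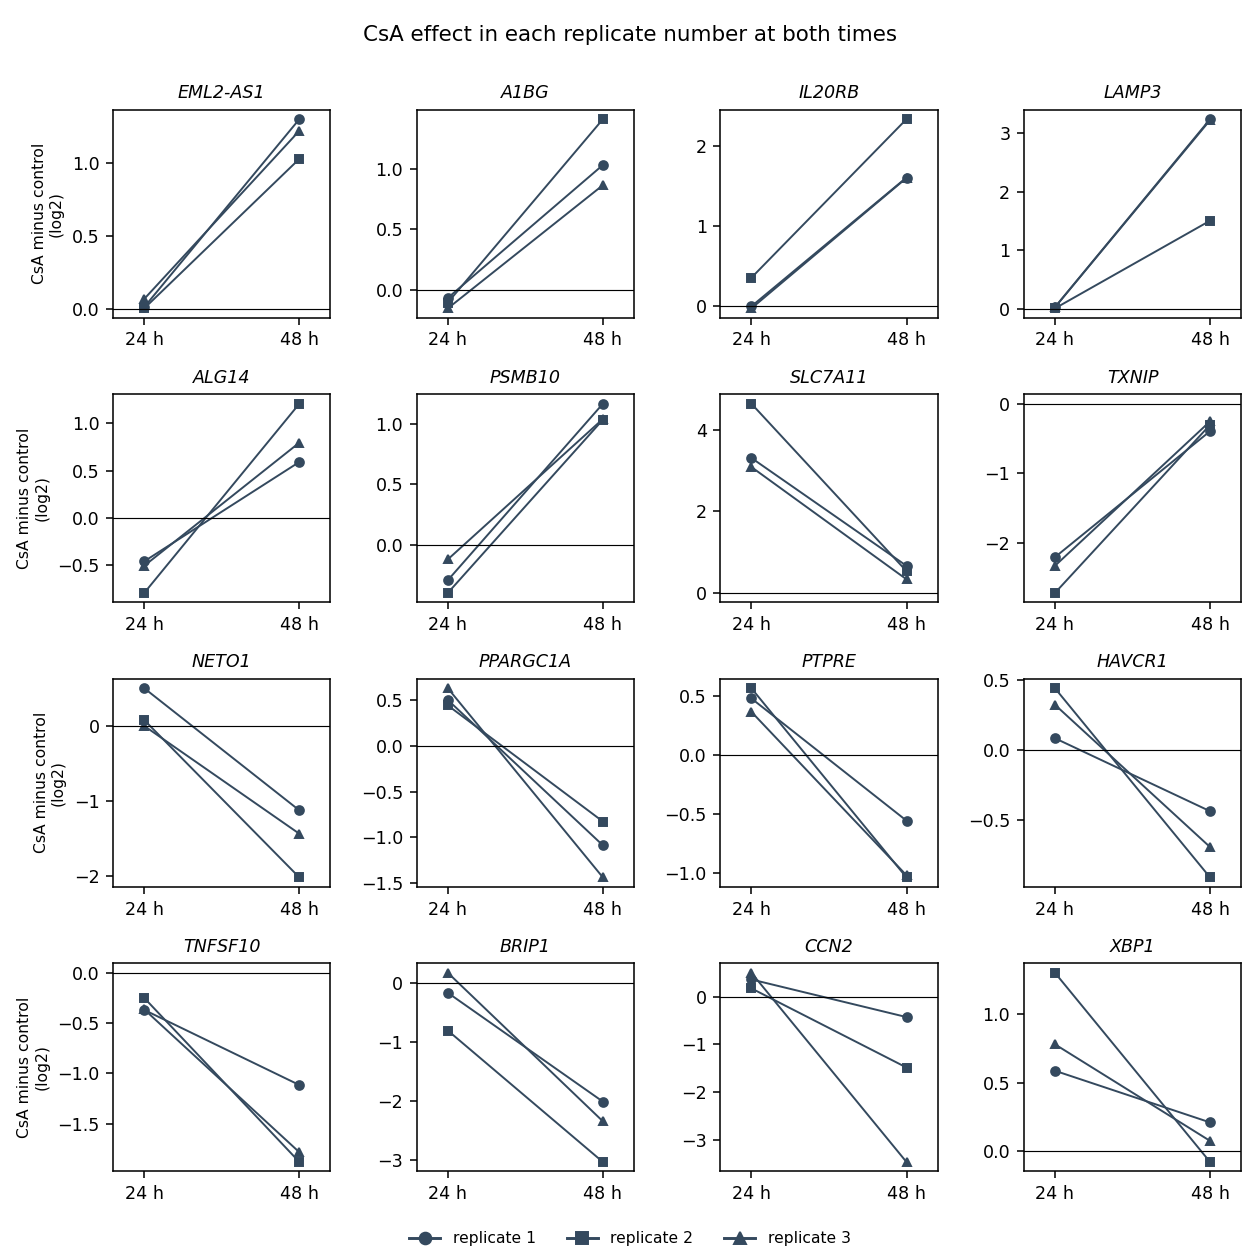
CsA effect (log2) at 24 h and 48 h for 16 genes, a line for each replicate number, with 0 marked. EML2-AS1, A1BG, IL20RB and LAMP3 leave 0 between the times, SLC7A11 and TXNIP approach it, and ALG14, PSMB10, PPARGC1A, PTPRE and HAVCR1 cross it in all 3 replicate numbers.

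Reversals from lower to higher were led by ALG14 and SLC35C1. ALG14, which helps to build the sugar chain attached to proteins in the ER, had control levels of 8.29, 8.26 and 7.83 and CsA levels of 7.83, 7.47 and 7.32 at 24 h. At 48 h its control levels were 7.89, 7.69 and 7.41 and its CsA levels 8.48, 8.90 and 8.21. CsA was below control in 3 of 3 replicate numbers at 24 h, although the groups overlapped, and above it at 48 h with separate groups. The effect at 48 h was 0.86 (adjusted p = 0.0402), and the change was 1.46 ± 0.20 (adjusted p = 0.243). It passed with 18 arrays and the block (adjusted p = 0.0187, over alternatives 0.0187 to 0.999). SLC35C1, the Golgi carrier of GDP-fucose, went from -0.67, -0.02 and -1.20 to 0.80, 0.95 and 0.75, and its other probe set had a change of 0.25.

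PSMB10, a subunit of the immunoproteasome, turned from -0.29, -0.40 and -0.12 to 1.17, 1.03 and 1.04, a change of 1.35 ± 0.53. TSPYL2, a chromatin protein that slows the cell cycle, was below all control arrays at 24 h and above all of them at 48 h, with effects of -0.22, -0.21 and -0.21 and then 1.82, 0.89 and 0.49. CYB5D1, a cytochrome b5 domain protein, likewise had separate groups at both times and a change of 0.85 ± 0.17. SPAG4, a nuclear envelope protein, owed its change of 1.35 ± 0.51 to replicate 2 (3.12, against 0.45 and 0.47). Without replicate 2 it was 0.46. LIMK1, a kinase of actin dynamics, and ASPHD2, a hydroxylase-like protein, had changes of 1.01 ± 0.21 and 1.29 ± 0.32. The other probe set of LIMK1 had 0.06, and the mean of both had 0.54.

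Reversals from higher to lower included PPARGC1A, the coactivator PGC-1alpha that drives mitochondrial biogenesis. Its control level was 7.99, 7.86 and 7.03 and its CsA level 8.49, 8.30 and 7.66 at 24 h. At 48 h the control level was 8.39, 7.26 and 6.93 and the CsA level 7.30, 6.43 and 5.49. CsA was above control in every replicate number at 24 h and below it at 48 h, while the groups overlapped at both times, replicate 3 being the lowest throughout. The effect at 48 h was -1.12 (adjusted p = 0.0422) and the change -1.64 ± 0.30 (adjusted p = 0.46). HAVCR1, the tubular injury marker KIM-1, turned from 0.08, 0.44 and 0.32 to -0.44, -0.91 and -0.69, with a change of -0.96 ± 0.21 (adjusted p = 0.46).

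Matrix genes turned as well, with a wide spread between arrays. CCN2, connective tissue growth factor, had effects of 0.36, 0.17 and 0.50 at 24 h, with separate groups, and of -0.43, -1.49 and -3.47 at 48 h. Its change was -2.14 ± 1.33 (adjusted p = 0.579), and -0.78 without the CsA array of replicate 3 at 48 h, whose level was 3.04 beside 8.50 and 7.15. THBS1, thrombospondin, had a change of -1.80 ± 0.98, with other probe sets at -0.44 and 0.12. PLAU, urokinase, turned from 0.32, 0.83 and 0.42 to -0.13, -0.66 and -0.90. COL4A1, a basement membrane collagen, had effects of -0.11, 0.00 and 0.05 at 24 h and of -0.68, -1.76 and -1.82 at 48 h, when it was lower with CsA (-1.42, adjusted p = 0.0404). Over 32 tested members of the matrix list the median change was -0.21, with 22 negative. Of the fibroblast markers, COL1A1, COL3A1, DCN and LUM reached a level of 4, and COL1A1 is also on the matrix list. The log2 of the summed signal of those markers ran from 11.28 to 11.41 in control and from 11.15 to 11.58 in CsA arrays at 24 h, and from 9.90 to 12.03 and 9.21 to 11.28 at 48 h. Their part in the result was not tested.

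Further turns concerned a potassium channel subunit, KCNG3 (-1.85 ± 0.72), the stem cell marker PROM1 (-1.99 ± 1.01), the centriole protein CNTLN (-1.73 ± 0.55), the phosphatase PTPRE (-1.34 ± 0.29) and the membrane protein TAPT1 (-0.91 ± 0.17). The uncharacterized RNA LOC105375172 went from 0.74, 1.04 and 1.15 to -0.56, -0.99 and -1.11, a change of -1.86 ± 0.33. C9orf72, a gene of membrane traffic, had effects of 0.89, 0.62 and 1.09 at 24 h and of -0.09 on average at 48 h, nearer to 0 than to the opposite sign. RIMS2, a vesicle-docking protein, had -0.66 ± 0.13, with another probe set at 0.19.

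Genes of sterol and fatty acid synthesis had mostly negative changes. Of 19 tested genes of cholesterol synthesis, 15 had a negative change, with a median of -0.36, and 3 were lower with CsA at 48 h after adjustment, against 1.76% of all genes. ACAT2, which makes the first intermediate of the sterol pathway, had control levels of 10.97, 11.16 and 12.02 and CsA levels of 10.89, 11.01 and 11.90 at 24 h. At 48 h its control levels were 10.82, 10.04 and 11.24 and its CsA levels 9.57, 8.84 and 9.86. The groups overlapped at 24 h and were separate at 48 h, when the effect was -1.28 (adjusted p = 0.0389). Its change was -1.16 ± 0.29 (adjusted p = 0.46). EBP, a sterol isomerase, had -0.51 ± 0.18, while PMVK, a kinase of the mevalonate pathway, turned upward with 0.41 ± 0.15.

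ACLY and ACSS2, which supply acetyl-CoA from citrate and from acetate, turned from positive to negative effects. ACSS2 went from 0.28, 0.58 and 0.92 to -0.47, -0.69 and -0.91, and ACLY from 0.21, 0.15 and 0.04 to -0.60, -0.52 and -0.75. Their changes were -1.28 ± 0.46 and -0.76 ± 0.27. ELOVL5, a fatty acid elongase, had -0.21 ± 0.14. PFKFB3, which makes the activator of glycolysis, turned from 0.34, 0.07 and 0.12 to -1.13, -1.48 and -0.87, with CsA below all control arrays at 48 h. The glycolytic enzymes LDHA and TPI1 had smaller changes of -0.31 ± 0.17 and -0.25 ± 0.16, and the glycolysis list had a median of -0.10.

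Of 15 tested clock genes, 13 had a negative change, with a median of -0.43 that ran from -0.72 to -0.23 over leave-one-out fits. In 8 the effect kept its sign and was larger at 48 h, in 3 it kept its sign and was smaller, and in 4 it turned. The circadian repressor BHLHE40 had effects of 0.97, 0.79 and 0.87 at 24 h, with separate groups, and of 0.05, 0.08 and 0.40 at 48 h, with overlapping ones. Its change was -0.70 ± 0.26 (adjusted p = 0.46), and its level fell by 1.07 in CsA arrays (adjusted p = 0.00274). Its relative BHLHE41 went from 0.45, 0.61 and 0.69 to -0.08, 0.08 and -0.63, and the cryptochrome CRY1 had a change of -0.43 ± 0.23. PER3, a period protein named after its values were seen, was among the 8, with mean effects of -0.02 at 24 h and -0.68 at 48 h. The cells were sampled at different hours after plating, and time of day is not given.

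Of the proximal tubule markers, 5 of the 7 tested had a negative change. CDH6, a cadherin of the developing tubule, had effects of 0.24, 0.13 and 0.20 at 24 h and of -0.40, -1.49 and -1.78 at 48 h. Its change was -1.42 ± 0.43 (adjusted p = 0.46), and 1 of its 5 other probe sets had 0.21. PDZK1, a scaffold of apical transporters, had -1.18 ± 0.49, with -2.48 in replicate 3. SLC3A1, a subunit of the cystine transporter, had -1.05 ± 0.44. The log2 of the summed signal of the marker list ran from 13.85 to 14.05 in control and from 13.73 to 14.07 in CsA arrays at 48 h. LCN2, the injury marker NGAL, was at 2.76 and 3.48 in the control arrays of replicates 1 and 2 at 24 h and at 11.06 in replicate 3. Its change of 1.07 ± 1.01 (adjusted p = 0.714) was 1.96, 0.76 and 0.49 in the 3 replicate numbers.

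Of 17 tested immediate early and MAPK feedback genes, 13 had a negative change, with a median of -0.25, and 2 were negative at an unadjusted p under 0.05 (11.8%, against 5.5% of all genes). DUSP6, a phosphatase that ERK induces, had effects of -0.03, -0.22 and -0.19 at 24 h and of -0.89, -1.48 and -1.36 at 48 h, with separate groups at 48 h, and a change of -1.10 ± 0.44 (adjusted p = 0.46). EGR1, an immediate early factor, had -1.11 ± 0.57, with -1.86 in replicate 3. MYC, the growth-promoting factor, went from 0.20, 0.36 and 0.11 to -0.10, -0.58 and -0.64. Of 14 tested glucose-sensing and nutrient-stress genes, 11 had a negative change, 2 of them at an unadjusted p under 0.05 (14.3%, against 5.5% of all genes), and 3 a positive one, TXNIP among these. IRS2, an adaptor of the insulin receptor, turned from 0.35, 0.45 and 0.46 to -0.18, -0.31 and -0.10.

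Inflammatory genes had a median change of -0.48, with 17 of 19 negative, but the values differed between replicate numbers (-0.06, -0.73 and -0.54). So did the starting levels. The median control level of the list was 7.15, 6.74 and 10.8 in replicates 1, 2 and 3 at 24 h. At 48 h it was 6.55, 8.07 and 10.01. What set replicate 3 apart was not tested. The median change ran from -0.73 to -0.13 when single arrays or replicate numbers were left out. ICAM1, an adhesion molecule for leukocytes, had a change of -0.04 in replicate 1 and of -1.49 and -0.62 in replicates 2 and 3. C3, the complement component, had 0.16, -1.03 and -0.36, and SOD2, the mitochondrial superoxide dismutase, -0.51, -1.28 and -0.12. No member passed after adjustment in limma, and 1 was negative at an unadjusted p under 0.05 (5.3%, near the 5.5% of all genes).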

How the data were processed

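Affymetrix arrays of biotin-labelled cRNA were used. The deposited values are log2 signals that the authors made with GCRMA, per the submitters' processing notes; the log base was taken from the range of the values, and the set of arrays that entered one normalization was not stated. Array medians ran from 2.87 to 2.92. Of 54675 probe sets, 41091 had 1 gene symbol, 1801 several and 11721 none, and 62 were controls. Probe sets with 1 symbol and a mean of at least 4 in the highest of all 6 groups, 12 h included, were kept (19290), and the brightest over 18 arrays stood for each of 10717 genes.

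limma (3.58.1, R 4.3.3) was fitted to the 12 arrays with group terms and the replicate number as a block, leaving 6 residual degrees of freedom. The contrast was (CsA minus control at 48 h) minus (CsA minus control at 24 h), with Benjamini-Hochberg adjustment at 0.05, and it was tested on simulated data. Errors after ± are standard errors of the contrast from this limma fit, with 3 replicates per group. limma drew the spread of each gene toward that of all genes. The errors are therefore not the spread of a gene's 3 changes. The numbers were taken to pair the arrays because same-numbered deviations correlated at 0.321 to 0.906. Different numbers reached 0.661 (CsA replicate 1 and control replicate 2 at 24 h). Between the times, control replicates 1 and 2 of 24 h correlated at 0.382 and 0.321 with their own number and at 0.383 and 0.514 with the other. In CsA arrays those values were 0.503 and 0.413 against 0.265 and 0.223. Pairing over time is thus unclear for these control arrays. The number of arrays limits the precision. Alternatives changed the block, the arrays, the filter, the scaling, the probe sets and the replicates.

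Genes were named by rule: the 12 smallest p-values each way (none passed) among genes with 3 changes of one sign, and the 6 largest full reversals each way. The 3 smallest p-values of each list and preset genes were added. The members and lists were chosen with earlier results of these data known, and genes outside the rule are said to be so. Promoters came from RefSeq. The 6 arrays of 12 h entered the filter, the choice of probe set and alternative fits.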

Additional observations from a re-analysis of the deposited data

Results flagged for a closer look

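In each of these genes the CsA effect had one sign in all 3 replicate numbers at 24 h and the other sign in all 3 at 48 h. That is what singled them out among the genes named in this report, and full reversals of other genes are not listed. The interaction in limma over 12 arrays passed for none of them. Such full reversals made up 3.17% (higher to lower) and 3.79% (lower to higher) of all genes.

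Effects turned upward in ALG14 (a change of 1.46), SLC35C1 (1.46), PSMB10 (1.35), SPAG4 (1.35), ASPHD2 (1.29), TSPYL2 (1.28), A1BG (1.21), LIMK1 (1.01) and CYB5D1 (0.85). Smaller upward turns were found in the immunoproteasome and interferon genes IFI35 (0.87) and PSMB9 (0.82), the proteasome subunits PSMA4 (0.48) and PSMA3 (0.39), and the ER receptor SRPRA (0.74). The remaining upward turns among the named genes were HMOX1 (0.69), TIGAR (0.59), XPC (0.57), BAG3 (0.50), MRPL28 (0.46), HSPA4 (0.45), PMVK (0.41) and PPIG (0.36).

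Effects turned downward in CCN2 (-2.14), PROM1 (-1.99), LOC105375172 (-1.86), KCNG3 (-1.85), THBS1 (-1.80), CNTLN (-1.73), NETO1 (-1.72) and PPARGC1A (-1.64). They did so in CDH6 (-1.42), PTPRE (-1.34), PFKFB3 (-1.34), ACSS2 (-1.28), PLAU (-1.08), HAVCR1 (-0.96), C9orf72 (-0.95) and TAPT1 (-0.91) as well. Smaller downward turns were those of VLDLR (-0.82), ACLY (-0.76), LAMC1 (-0.71), RIMS2 (-0.66), IRS2 (-0.62) and NFAT5 (-0.51). In NETO1, C9orf72 and PPIG one of the replicate numbers lay within 0.01 of 0 at one time, so their place here rests on a very small difference.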

How the results depend on the processing

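Of the 126 named genes whose alternatives were computed, 117 kept the sign of their change under every alternative that gave a value, up to 28 of them. With the level filter on the groups of 24 and 48 h, added after seeing the data, 10668 genes gave 0 calls and 542 positive and 588 negative changes at an unadjusted p under 0.05. With 18 arrays limma called 4 positive changes with the replicate block and 4 without it, and 1 negative change with it. Over fits that left out an array or a replicate number the positive calls ran from 0 to 2 and the negative ones from 0 to 8, the highest counts both coming without the CsA array of replicate 1 at 48 h. Without the replicate block the 12 arrays gave 0 calls and 393 changes at an unadjusted p under 0.05, against 1132 with it. The fork repair median was -0.63 with values below 4 raised to 4 and ran from -0.90 to -0.54 over the leave-one-out fits, and the mitosis median from -0.76 to -0.19. The change of DGKG was -0.02 with values below 4 raised to 4. The mean of a gene's probe sets gave 0.07 for SEC23A and 0.08 for SPCS3. Over the leave-one-out fits the change turned sign in NUPR1 (-0.58 to 1.10), SHMT2 (-0.18 to 0.42), GINS4 (-0.15 to 0.19), FEN1 (-0.03 to 0.54), PLK1 (-0.38 to 0.77), SEC23A (-0.30 to 0.00), SPCS3 (-0.20 to 0.15) and ERO1A (-0.12 to 0.11). The cause was not tested. The scaling alternatives moved the median change of all genes by less than 0.1.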

Other observations

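Protein quality control, mostly of the cytosol, had small negative effects at 24 h and effects around 0 at 48 h. All 23 tested proteasome subunits had a negative mean effect at 24 h, with a median of -0.14, against 11 at 48 h, with a median of 0.01, and 17 had a positive change. PSMA4 went from -0.14, -0.21 and -0.19 to 0.16, 0.28 and 0.46, and PSMA3 from -0.11, -0.15 and -0.12 to 0.18, 0.34 and 0.26. PSMB2 had a change of 0.35 ± 0.15, with another probe set at -0.32. The same held for the 18 tested heat shock proteins, with 18 negative effects at 24 h and 10 at 48 h. That list is cytosolic except for HSPD1 and HSPE1, which are mitochondrial. DNAJA1, a cochaperone of HSP70, had effects of -0.53, -0.78 and -0.52 at 24 h, with separate groups, and of -0.31, 0.21 and 0.23 at 48 h. BAG3, another partner of HSP70, had a change of 0.50 ± 0.19 and HSPA4, an exchange factor, one of 0.45 ± 0.16. Other probe sets of HSPA4 had -0.13, 0.15 and 0.45, and the mean over its probe sets was 0.23. The median change of the heat shock list was 0.14, and it ran from -0.05 to 0.44 when arrays were left out.

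Mitochondrial ribosome proteins divided: 15 of 23 had a positive change. MRPL28 had 0.46 ± 0.16 and MRPS7 had 0.36 ± 0.14, whereas MRPS25 was below control in every CsA array at both times, with effects of -0.32 and -0.73 (adjusted p = 0.0313 in limma at 48 h). The 26 tested respiratory chain genes had a median change of -0.02 and none at an unadjusted p under 0.05, against 10.6% of all genes. Their members with the smallest p were NDUFA2 (-0.28 ± 0.16), NDUFA9 (0.20 ± 0.13) and ATP5F1C (-0.17 ± 0.14).

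Cyclophilins and the genes of calcineurin and NFAT had small changes in the median (0.10 and 0.09). Among the cyclophilins the largest change was that of PPIB, given above (0.42). Of 16 cyclophilins, 11 had a positive change with a median of 0.10. PPIG had effects of -0.30, -0.29 and -0.32 at 24 h, with separate groups, and of 0.08, 0.07 and 0.00 at 48 h. Its change was 0.36, its other probe sets had -0.19, 0.19 and 0.28, and the mean over them all was 0.16. PPWD1 and CWC27, cyclophilins of the spliceosome, had changes of 0.18 ± 0.13 each. RCAN1, a target and inhibitor of calcineurin, had effects of -0.56, -0.15 and -0.09 at 24 h and of -0.16, 0.23 and 0.03 at 48 h, and its other probe set had a change of -0.20. NFATC4 had -0.18 ± 0.14 and NFAT5, the osmotic member of the NFAT family, -0.51 ± 0.30. None of the 10 tested calcineurin and NFAT genes had a change at an unadjusted p under 0.05, against 10.6% of all genes, a share that so few genes cannot be told from.

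Lysosome, antioxidant and interferon genes had further values. WIPI1, an autophagy protein, had a change of 0.77 ± 0.40, with 1.53 in replicate 1 against 0.46 and 0.32. TFEB, the master factor of lysosome genes, had effects of 0.01, -0.03 and 0.22 at 24 h and of 0.52, 0.33 and 0.66 at 48 h, and ATP6V0D1, a proton pump subunit, had a change of 0.42 ± 0.19. Among NRF2 targets, HMOX1, heme oxygenase, had 0.69 ± 0.39, GCLM of glutathione synthesis 0.38 ± 0.18 and the glutathione reductase GSR -0.63 ± 0.19, with another probe set at -0.14. IFI35 and PSMB9, which interferon induces, turned upward with 0.87 ± 0.34 and 0.82 ± 0.36, beside TNFSF10 of the same list at -1.26. Ribosome biogenesis factors went both ways, with UTP4 at -0.40 ± 0.14, WDR12 at -0.41 ± 0.16 and PES1 at 0.47 ± 0.18. IL18, a cytokine of the injury list, had -0.47 ± 0.25, and CLU, clusterin, -0.20 ± 0.24, with other probe sets at -0.89 and -0.38. LAMC1, a laminin chain, turned from 0.23, 0.10 and 0.06 to -0.44, -0.51 and -0.80.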
